A study of Sus scrofa with 6 samples.

Results

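Macrophages and dendritic cells were followed in the pig oviduct ampulla, the segment where fertilisation occurs, through 40 genes chosen by name for their roles in these cells. Of the 40 listed genes, 36 had a row under their symbol among the 35670 Ensembl genes of the deposited count table. ITGAX, CLEC9A, SLA-DRA and SLA-DQA1 had no such row, although the table that pairs identifiers with symbols lists 1 class II row as HLA-DRA, which is described apart from the counts. A filter on low counts, applied without regard to stage, left 34 of the 36, and MARCO and TIMD4 were not tested. The samples were ampulla tissue of female Sus scrofa at 2 stages, 3 libraries labelled post-ovulatory and 3 labelled early luteal. Whole tissue was used with no sorting of cells, and the labels give no strain, age, treatment or animal of origin. The p-values therefore measure the spread among these libraries, which may be technical.

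Macrophages engulf dead cells, sperm and microbes through scavenger receptors and depend on the growth factor receptor encoded by CSF1R, whereas conventional dendritic cells develop under the receptor FLT3 and carry antigen to T cells. These cells display peptides of engulfed proteins on class II molecules of the major histocompatibility complex (MHC), whose genes are switched on together by the coactivator CIITA, and they prime T cells with costimulatory molecules such as CD80 and CD86. In the mucosa of the reproductive tract they take part in defence and in tolerance towards sperm and embryos. In bulk tissue fewer cells of a type and less RNA per cell cannot be told apart.

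Library totals ranged from 7370723 to 30954222 counts. Levels are given as CPM, each gene's share of the library total after TMM scaling (edgeR's correction for library composition), and 3 counts, taken as the floor of a library, corresponded to between 0.0957 and 0.405 CPM; floors and intervals cover counting error only. Early luteal replicate 2 lay at 176 on the first principal component (55.9% of the variance), against -51.0 to 2.39 for the other 5 libraries, so counts and medians of each role and pathway list are also given without it. Exon lengths were not used here, and levels are compared between libraries for the same gene, not between genes.

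None of the 34 tested genes passed the test of early luteal against post-ovulatory tissue. The quasi-likelihood test of edgeR called 0 of 34 at a Benjamini-Hochberg adjusted p of 0.05, as it did over the whole table (0 of 17920, 0%), and the adjusted p of the members ranged from 0.685 for CD163 to 0.999 for AIF1. No member had an unadjusted p under 0.05, where 7.11% of all tested genes did. DESeq2 also called 0 members (0.986% of all genes with an adjusted p), its lowest adjusted p being 0.343 for CD163, and limma voom called 0, with 0.683 as its lowest. CD163 was also the 1 member with an unadjusted p under 0.05 in each of these tools. Fold changes were taken as early luteal over post-ovulatory. In 27 of 34 members the log2 fold change lay below 0, against 51.8% of all tested genes, and the median was -0.27 against -0.03 for all tested genes. That lean depended on single libraries: without early luteal replicate 2 the count below 0 was 16 of 34 and the median 0.03, and without post-ovulatory replicate 2 they were 18 of 34 and -0.03. Without early luteal replicate 1 the median was -1.07, 31 of 34 lay below 0 and 8 members had an unadjusted p under 0.05 (CD163, VSIG4, CSF1R, XCR1, CD74, SLA-DQB1, SLA-DMA and SLA-DMB), with 0.191 as the lowest adjusted p of edgeR. In that run 2138 of 18534 tested genes had an unadjusted p under 0.05 in edgeR, and the median over all tested genes was -0.06.

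**Figure D1:**
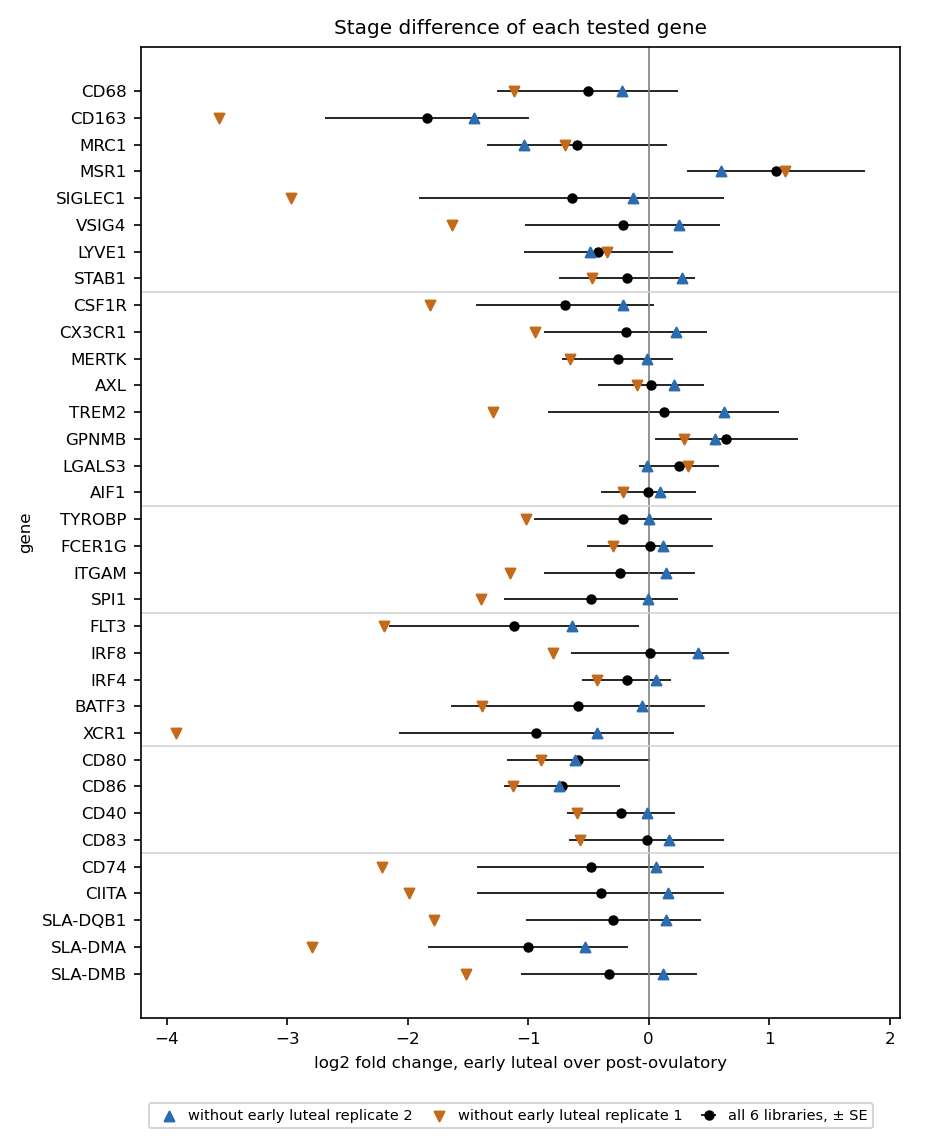
Log2 fold change (early luteal over post-ovulatory, x axis) of each of the 34 tested genes (y axis, grouped by role); black points with bars are the fit on all 6 libraries ± SE, blue and orange triangles the fits that leave out early luteal replicates 2 and 1. The black points centre on a median of -0.27, the blue on 0.03 and the orange on -1.07.

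The libraries did not sort by stage. Early luteal replicate 1 was the highest of the 6 libraries in 14 of 34 members (14.3% of all tested genes) and post-ovulatory replicate 2 in 13 (14.2%). Early luteal replicate 2 was the lowest in 19 of 34 (39.2% of all tested genes). The early luteal stage thus held the library most often highest and the one most often lowest. The centred median of the members was 0.88 in early luteal replicate 1, -1.27 in replicate 2 and -0.43 in replicate 3, with 0.32, 0.89 and -0.17 in post-ovulatory replicates 1, 2 and 3 (log2 CPM minus the gene's mean).

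**Figure D2:**
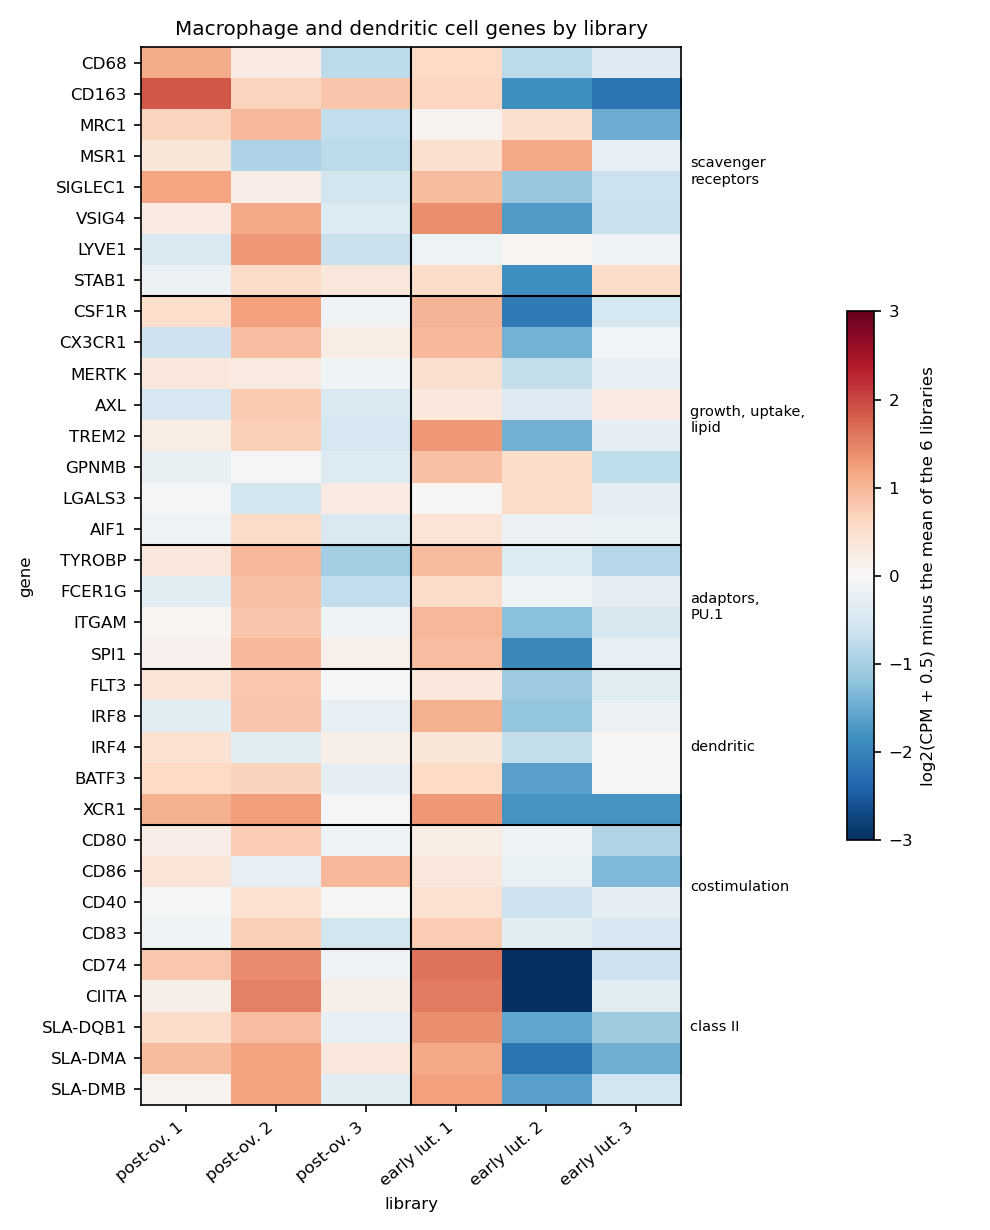
Level of each tested gene (rows, grouped by role) in each library (columns), as log2(CPM + 0.5) minus the gene's mean over the 6 libraries; colours end at 3 on either side. The early luteal replicate 1 and post-ovulatory replicate 2 columns are mostly red and the early luteal replicate 2 column mostly blue, with the deepest blue in CD74 and CIITA.

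Scavenger receptors came first among the macrophage genes. CD163, which takes up haemoglobin bound to haptoglobin (chromosome 5, 63300200 to 63334497 in the RefSeq annotation of Sscrofa11.1), stood at 32.5, 13.9 and 15.7 CPM in post-ovulatory replicates 1, 2 and 3 and at 13.7, 2.03 and 1.46 CPM in early luteal replicates 1, 2 and 3. It was the only member whose stages did not overlap, where 9.57% of all tested genes did not overlap with the lower level in early luteal tissue, and the nearest libraries of the stages were 13.7 and 13.9 CPM. The post-ovulatory mean was 20.7 ± 10.3 CPM and the early luteal mean 5.72 ± 6.90 CPM (SD, n = 3). Its log2 fold change was -1.84 ± 0.85 (SE), which missed the threshold in edgeR (adjusted p = 0.685, and 0.191 to 0.985 over the alternatives). Of the members with higher levels in early luteal tissue in every alternative run, MSR1, the class A scavenger receptor, had the largest log2 fold change, 1.06 ± 0.74 (edgeR, adjusted p = 0.769). It stood at 2.90, 0.882 and 1.02 CPM in post-ovulatory and 3.15, 5.27 and 1.72 CPM in early luteal replicates, and the stages overlapped.

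The lysosomal glycoprotein gene CD68 (chromosome 12, 52874754 to 52877256) stood at 6.31, 3.28 and 1.34 CPM in post-ovulatory and 4.30, 1.35 and 1.92 CPM in early luteal replicates. The mannose receptor gene MRC1 stood at 7.06, 8.82 and 2.39 against 4.69, 6.22 and 1.19 CPM. For each of these genes the libraries within a stage spread more widely than the stages did from each other: the log2 fold changes were -0.51 ± 0.75 for CD68 and -0.59 ± 0.75 for MRC1. VSIG4, a complement receptor of resident macrophages, stood at 11.5, 21.5 and 6.98 against 25.7, 2.57 and 5.84 CPM, so that early luteal replicates 1 and 2 differed 10.01-fold. SIGLEC1, which binds sialylated surfaces, had 25, 0 and 3 counts in the early luteal and 27, 6 and 8 counts in the post-ovulatory libraries. MARCO, another class A scavenger receptor, had 3 counts in all libraries together, and TIMD4, a phosphatidylserine receptor, had at most 23 counts in any library. Of the 8 tested receptors in this role, 7 had a log2 fold change below 0 (median -0.46), and 5 of 8 without early luteal replicate 2 (median -0.17).

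LYVE1 and STAB1 are carried by some tissue macrophages but also by lymphatic and other endothelium. LYVE1, a hyaluronan receptor, stood at 5.42, 19.3 and 4.62 CPM in post-ovulatory and 6.81, 7.97 and 7.03 CPM in early luteal replicates, with post-ovulatory replicate 2 above all others. Of the 5 lymphatic markers, CCL21 (32.6 CPM), FLT4 (9.58 CPM), RELN (4.28 CPM) and PROX1 (0.630 CPM) were also highest in that library, and PDPN was highest in early luteal replicate 1 (43.2 against 23.4 CPM). Their summed level ran from 44.6 to 70.6 CPM in post-ovulatory and from 17.8 to 70.03 CPM in early luteal libraries, with PROX1 at 0 counts in early luteal replicates 2 and 3. STAB1, a scavenger receptor, stood at 28.1, 47.1 and 40.3 against 46.6, 8.51 and 46.6 CPM, and only early luteal replicate 2 lay apart. Which cells carried these transcripts was not tested.

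Among the genes of macrophage growth and uptake, 4 of 8 had early luteal replicate 2 as the lowest library. CSF1R, the receptor on which macrophage survival depends (chromosome 2, 151102138 to 151130311), stood at 22.3, 36.5 and 14.1 CPM in post-ovulatory and 31.2, 3.11 and 10.4 CPM in early luteal replicates. The 10.05-fold difference between early luteal replicates 1 and 2 exceeded that between the stage means, 14.9 ± 14.6 against 24.3 ± 11.4 CPM (log2 fold change -0.69 ± 0.74). CX3CR1, the fractalkine receptor, stood at 6.02, 18.7 and 11.3 against 19.02, 3.24 and 8.95 CPM. TREM2, a lipid receptor of phagocytes, had 72, 2 and 18 counts in the early luteal libraries, and its level in replicate 1 was 17.1 times that in replicate 2 (95% exact binomial counting interval 4.57 to 144).

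MERTK and AXL bind dying cells through bridging proteins, GAS6 for both receptors and PROS1 for MERTK. MERTK stood at 12.7, 11.97 and 8.99 CPM in post-ovulatory and 13.9, 5.81 and 8.29 CPM in early luteal replicates, and AXL at 16.6, 41.7 and 17.3 against 29.9, 18.0 and 28.2 CPM. Neither separated the stages (log2 fold changes -0.26 ± 0.46 and 0.02 ± 0.44). The MERTK ligand gene PROS1 stood at 94.7, 86.8 and 66.9 CPM in post-ovulatory and at 174, 179 and 152 CPM in early luteal replicates, and every early luteal library lay above every post-ovulatory one, where 7.61% of all tested genes did. The log2 fold change of PROS1 was 1.02 ± 0.25 and missed the threshold over all genes in edgeR (adjusted p = 0.571). In DESeq2 its adjusted p was 0.05, at the threshold. GAS6 overlapped, at 239, 492 and 517 against 468, 70.0 and 337 CPM.

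AIF1, LGALS3 and GPNMB were not low in early luteal replicate 2. AIF1, the actin-binding protein IBA1 used to stain macrophages (chromosome 7, 23711752 to 23731191), stood at 16.4, 27.5 and 13.2 CPM in post-ovulatory and 24.5, 16.2 and 15.98 CPM in early luteal replicates, a log2 fold change of -0.002 ± 0.40. LGALS3, galectin-3, is made by macrophages and by many epithelia, and stood at 403, 285 and 494 against 431, 627 and 349 CPM. Its highest library was early luteal replicate 2, as it was for the epithelial genes EPCAM, CDH1 and ESRP1, whereas KRT8, KRT18, FOXJ1 and CLDN4, also epithelial, were lowest there. GPNMB, a lysosomal glycoprotein of lipid-laden phagocytes, stood at 4.01, 4.66 and 3.44 against 9.19, 7.16 and 2.59 CPM (log2 fold change 0.65 ± 0.59). Over the 8 genes of this role the median log2 fold change was 0.01, with 4 below 0, and without early luteal replicate 2 it was 0.16, with 3 below 0.

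**Figure D3:**
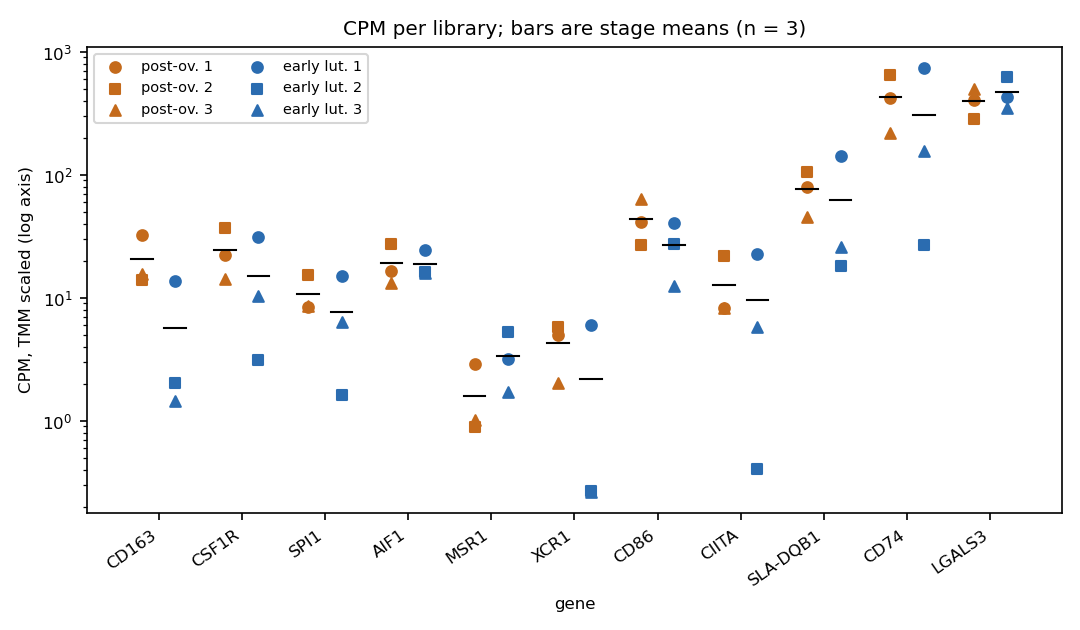
CPM (y axis, log scale) of 11 genes (x axis) in the 3 post-ovulatory (orange) and 3 early luteal (blue) libraries, with marker shapes for replicates and bars for stage means. Only CD163 separates the stages, by 13.7 against 13.9 CPM; in CD74, CIITA, CSF1R and SPI1 early luteal replicate 1 lies far above early luteal replicate 2.

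The signalling adaptors TYROBP (DAP12) and FCER1G, which pair with activating receptors of myeloid and NK cells, were highest in post-ovulatory replicate 2 and next in early luteal replicate 1. TYROBP stood at 7.204, 11.7 and 2.49 CPM in post-ovulatory and 11.3, 4.05 and 2.85 CPM in early luteal replicates, and FCER1G at 10.4, 24.8 and 7.72 against 20.04, 12.03 and 10.8 CPM. ITGAM, the CD11b integrin chain of monocytes, macrophages and neutrophils, stood at 11.7, 20.4 and 10.2 against 23.1, 4.46 and 8.03 CPM. SPI1 encodes PU.1, the transcription factor that sets the myeloid lineage, and stood at 8.39, 15.4 and 8.48 against 14.9, 1.62 and 6.37 CPM. All 4 tested genes overlapped between the stages, where 9.57% of all tested genes were lower and 7.61% higher without overlap. The log2 fold changes of the 4 genes ran from -0.48 (SPI1) to 0.01 (FCER1G). Their median was -0.23 with 3 of 4 below 0, and it turned to 0.06 with 1 of 4 below 0 without early luteal replicate 2.

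FLT3, BATF3 and XCR1 had few counts among the dendritic cell genes. FLT3, the receptor of dendritic cell precursors (chromosome 11, 5370475 to 5455439), had 12, 11 and 17 counts in post-ovulatory and 13, 0 and 5 counts in early luteal replicates 1, 2 and 3 (log2 fold change -1.12 ± 1.04; edgeR, adjusted p = 0.811). BATF3, the transcription factor of cross-presenting dendritic cells, had 25, 16 and 24 against 29, 0 and 16 counts. XCR1, the chemokine receptor that marks those cells, had 67, 46 and 63 counts in the post-ovulatory and 93, 2 and 4 counts in the early luteal libraries. In CPM it stood at 4.98, 5.80 and 2.01 against 5.98, 0.270 and 0.265, so early luteal replicate 1 was the highest library of all 6 and the other early luteal libraries lay below every post-ovulatory one. The level in early luteal replicate 1 was 22.1 times that in replicate 2 (95% exact binomial counting interval 5.95 to 185) and 22.5 times that in replicate 3 (8.51 to 84.4).

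IRF8, which drives the same dendritic lineage and is also made by B cells and monocytes, did not share the low value of XCR1 in early luteal replicate 3. It stood at 7.13, 16.6 and 7.56 CPM in post-ovulatory and 19.5, 3.78 and 7.96 CPM in early luteal replicates. IRF4, a factor of other dendritic cells and of plasma cells, stood at 37.1, 21.7 and 30.8 against 34.9, 16.4 and 27.7 CPM. Of the 5 tested dendritic genes, 4 had a log2 fold change below 0 (median -0.59), and 3 of 5 without early luteal replicate 2 (median -0.05).

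The 4 costimulatory genes had log2 fold changes below 0, and none passed. CD86, a ligand of CD28 on T cells, stood at 41.5, 26.6 and 63.5 CPM in post-ovulatory and 40.2, 27.6 and 12.3 CPM in early luteal replicates; here early luteal replicate 3, not 2, was the lowest (log2 fold change -0.72 ± 0.48; edgeR, adjusted p = 0.760). CD80, the other CD28 ligand, was also lowest there, at 1.72 CPM, and ranged from 3.24 to 6.55 CPM in the other libraries. CD40, which receives help from T cells, ranged from 10.1 to 14.7 CPM in post-ovulatory and from 6.76 to 14.8 CPM in early luteal libraries. CD83, a marker of mature dendritic cells, ranged from 2.49 to 6.68 against 2.59 to 6.81 CPM. The median of the 4 was -0.41, and -0.31 with 3 of 4 below 0 without early luteal replicate 2.

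MHC class II genes spread widely within the early luteal stage. CD74, the invariant chain that escorts class II molecules (chromosome 2, 151402210 to 151409924), stood at 417, 640 and 219 CPM in post-ovulatory and at 733, 26.6 and 155 CPM in early luteal replicates. Early luteal replicates 1 and 2 thus differed 27.5-fold, while the stage means were 305 ± 376 and 425 ± 210 CPM (SD, n = 3). The log2 fold change was -0.48 ± 0.94 with all libraries, 0.06 when early luteal replicate 2 was left out and -2.22 when early luteal replicate 1 was. CIITA, the class II coactivator (chromosome 3, 32171706 to 32230775), had a like order within the early luteal stage: 112, 172 and 259 counts in post-ovulatory and 350, 3 and 87 counts in early luteal replicates 1, 2 and 3, or 8.32, 21.7 and 8.26 against 22.5, 0.405 and 5.77 CPM. Early luteal replicate 1 stood 55.5 times above replicate 2 (95% exact binomial counting interval 18.8 to 270.3).

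The structural and loading genes of class II lie together on chromosome 7, from SLA-DQB1 (24969034 to 24977238) through SLA-DMB (25119278 to 25125089) to SLA-DMA (25133494 to 25137928). SLA-DQB1, the DQ beta chain, stood at 79.7, 104 and 45.6 CPM in post-ovulatory and 143, 18.2 and 25.6 CPM in early luteal replicates. SLA-DMA and SLA-DMB encode the DM molecule that exchanges the CD74 fragment for peptide. They stood at 23.99, 29.0 and 15.6 against 27.5, 2.30 and 4.11 CPM and at 18.2, 39.6 and 13.2 against 39.8, 5.14 and 11.08 CPM. In each of the 5 tested class II genes early luteal replicate 2 was the lowest library (39.2% of all tested genes). Early luteal replicate 1 was the highest in 4 of 5 (14.3%). All 5 overlapped between the stages, where 9.57% of all tested genes were lower and 7.61% higher without overlap. The log2 fold changes of the 5 genes ran from -1 (SLA-DMA) to -0.29 (SLA-DQB1), with a median of -0.40. Without early luteal replicate 2 the median was 0.12 with 1 of 5 below 0, and without early luteal replicate 1 it was -1.99 with 5 of 5 below 0. The row listed as HLA-DRA, the class II DR alpha chain, had another order, at 227, 158 and 43.0 against 152, 48.1 and 43.8 CPM. It differed 3.16-fold between early luteal replicates 1 and 2. A class II row listed as HLA-DOB, not a member, stood at 2.38, 5.92 and 6.98 against 8.61, 1.76 and 1.99 CPM. Like most class II members, it was highest in early luteal replicate 1 and lowest in replicate 2. Class II genes have close copies, and RefSeq places the pseudogene SLA-DQB2 beside SLA-DQB1, so reads of these genes may have been split or lost. In the same annotation 7 of the 36 members overlap another protein-coding gene (STAB1, AIF1, XCR1, CD80, CIITA, SLA-DMA and SLA-DMB), and their counts carry that uncertainty.

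The members were unevenly low in early luteal replicate 2. Against the median of the other 5 libraries, CIITA stood there at 4.87% and XCR1 at 5.43%, on only 3 and 2 counts. CD74 stood at 6.39%, SLA-DMA at 9.58%, CSF1R at 14.0% and SPI1 at 19.1%. AIF1 stood at 98.8%, FCER1G at 111%, MRC1 at 133%, LGALS3 at 155%, GPNMB at 179% and MSR1 at 306%. In all, 14 of 34 members were under 25% of that median, against 16.1% of all tested genes, and 6 of 34 were above it, against 44.9% of all tested genes. Markers of other cells split in that library as well. Among 10 pan-leukocyte markers CD53 stood at 124% and PTPRC at 84.2%, but CORO1A at 8.67%, and CD37, CD52 and CD48 had 0 counts. Of the epithelial markers EPCAM stood at 210% and CLDN4 at 18.7%, and of the endothelial ones EMCN at 202% and PLVAP at 13.8%. What part the state of this library had in the values of the members was not tested.

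**Figure D4:**
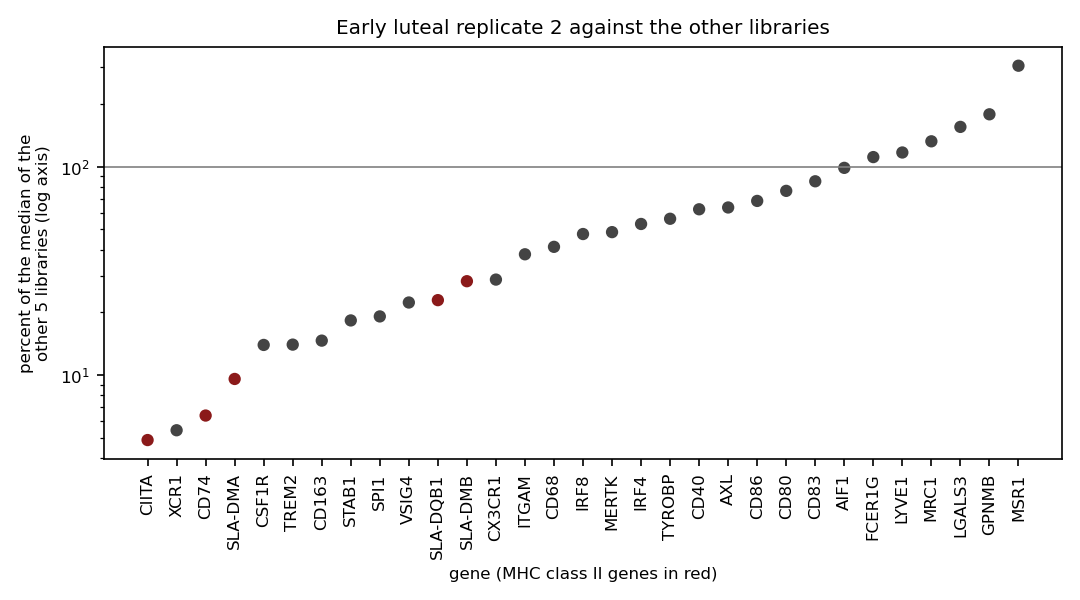
Level in early luteal replicate 2 as a percent of the median of the other 5 libraries (y axis, log scale) for the 31 tested members with a count there, in rising order (x axis); red points are class II genes. The 31 members run from 4.87% for CIITA (3 counts) to 306% for MSR1 (39 counts).

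Other leukocyte lists were compared with the members library by library. The summed level of the 10 pan-leukocyte markers was 180, 255 and 117 CPM in post-ovulatory and 230, 95 and 79.9 CPM in early luteal replicates 1, 2 and 3. That of 9 T and NK cell markers was 63.3, 79.5 and 35.1 against 92.5, 17.2 and 22.8 CPM. In both lists post-ovulatory replicate 2 and early luteal replicate 1 were the highest libraries, as in the class II genes (834 and 966 CPM summed). The sums of B and plasma cell markers (554, 87.6 and 14.1 against 266, 20 and 11.3 CPM) and of neutrophil markers (169, 77.9 and 90.9 against 122, 58.4 and 72.5 CPM) were highest in post-ovulatory replicate 1. There JCHAIN alone held 537.8 CPM of the first sum and LTF alone 165.5 CPM of the second. By the mean of centred log2 CPM over genes, neutrophil markers were highest in early luteal replicate 1 (0.617), with 0.577 and 0.301 in post-ovulatory replicates 2 and 1. B and plasma cell markers stood at 1.195 in post-ovulatory replicate 1 and 1.184 in early luteal replicate 1 on that scale. The 7 smooth muscle markers summed to 3261, 5616 and 2877 CPM in post-ovulatory and to 993, 6519 and 9323 CPM in early luteal replicates, lowest in early luteal replicate 1 and, among the post-ovulatory libraries, highest in replicate 2. The immediate early genes, a class sensitive to handling of tissue, summed to 586, 826 and 288 against 370, 1218 and 1555 CPM, lowest in post-ovulatory replicate 3. The haemoglobin gene HBB stood at 0.957 CPM in post-ovulatory replicate 3 and at 49.9 to 150.0 CPM in the other libraries. The part of tissue make-up, handling or blood in the members' values was not tested.

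**Figure D5:**
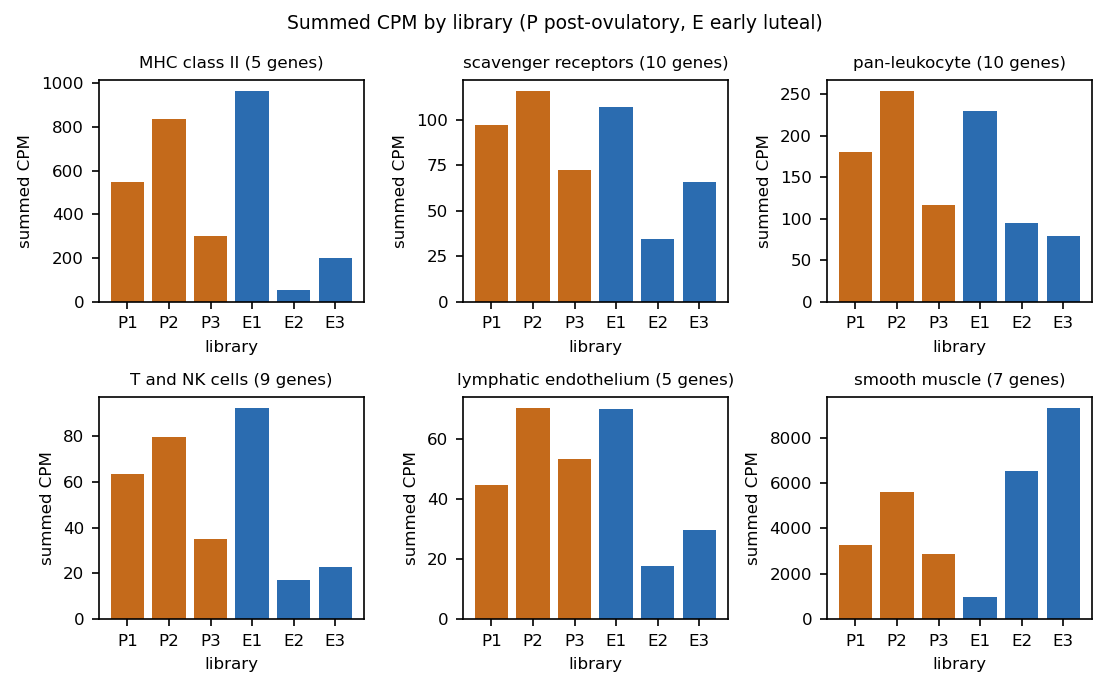
Summed CPM (y axis, from 0) in each library (x axis; P post-ovulatory, E early luteal) of class II genes, scavenger receptors and 4 marker lists of other cells. Replicates P2 and E1 are highest for class II, leukocyte and T and NK genes, while smooth muscle is lowest in E1, at 993 CPM.

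Scaled to the pan-leukocyte sum of the same library, 20 of the 28 tested members with over 3 counts in every library lay nearer together (highest over lowest library) than in CPM, and 8 lay further apart. The same count was not made over all tested genes, so 20 of 28 has no background beside it. Among the 8 further apart, LGALS3 went from 2.2-fold to 5.90-fold and MSR1 from 5.98-fold to 16.02-fold. The ratio of CSF1R to that sum ranged from 0.1205 to 0.1435 in 5 libraries and was 0.0327 in early luteal replicate 2. In that replicate the markers of the sum were unevenly low. CD37, CD52 and CD48 had 0 counts and CORO1A stood at 8.67% of the median of the other libraries, but PTPRC at 84.2% and CD53 at 124%. Ratios in that replicate depend on which markers make up the sum. The ratio of the summed class II genes was 3.04, 3.28 and 2.59 in the post-ovulatory libraries and 4.195, 0.555 and 2.53 in the early luteal ones. For this sum early luteal replicate 3 lay near the post-ovulatory libraries and replicate 2 did not. CD74 made up 1.94 of the 2.53 in replicate 3, where CD74, CIITA and SLA-DMB lay within the post-ovulatory range. SLA-DMA (0.0515 against 0.114 to 0.133) and SLA-DQB1 (0.321 against 0.391 to 0.443) lay below it there. CD163 stayed low in both early luteal replicates 2 and 3 (0.0213 and 0.0183, against 0.0544 to 0.181 in the other libraries). So did XCR1 (0.00285 and 0.00332, on 2 and 4 counts, against 0.0172 to 0.0276). AIF1 had its highest ratios in early luteal replicates 2 and 3, 0.171 and 0.2002, against 0.0912 to 0.113. Its CPM there, 16.2 and 15.98, lay within the 13.2 to 27.5 CPM of the other libraries. The pan-leukocyte sum was lowest in those replicates, 95 and 79.9 CPM against 117 to 255 CPM. A gene of even CPM therefore has its highest ratios there. These ratios describe the 6 libraries and were not tested.

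None of the other genes fixed for the same pathways passed the test. Of 19 tested further macrophage and monocyte genes, 13 had a log2 fold change below 0 (median -0.23) and 0 passed. The stages were separate in 0 of the 19, where 9.57% of all tested genes were lower and 7.61% higher without overlap. Without early luteal replicate 2, 9 of the 19 were below 0 (median 0.01). The complement genes C1QA (24.1, 18.7 and 10.7 against 22.4, 3.24 and 7.56 CPM) and C1QB (56.5, 48.4 and 26.4 against 49.4, 22.3 and 21.6 CPM), products of tissue macrophages, had the lowest p-values of that list without passing (edgeR, adjusted p = 0.824 and 0.802). Of 11 tested ligands and chemoattractants 8 were below 0 (median -0.31) and 0 passed, and the median turned to 0.24 with 5 below 0 without early luteal replicate 2. FLT3LG, the ligand of FLT3, stood at 0.946 CPM in early luteal replicate 2 and at 11.14 to 17.5 CPM elsewhere, and CSF1, a ligand of CSF1R, at 17.7 to 48.3 CPM over all libraries. CCL19, which draws mature dendritic cells, was at 12.1 CPM in post-ovulatory replicate 2 and at 0.862 CPM or less in the other libraries (edgeR, adjusted p = 0.685).

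Further antigen presentation genes, 14 tested, had a median of -0.26 with 10 below 0, and of -0.14 with 9 below 0 without early luteal replicate 2, and 0 passed. CTSL, a lysosomal protease that trims CD74, stood at 10.3 CPM in early luteal replicate 2 and at 1.01 to 1.61 CPM in the others, and its stages did not overlap (1.56 against 1.59 CPM at the nearest; edgeR, adjusted p = 0.692). Of the 14 genes, 2 were higher in early luteal tissue without overlap (CTSL and LGMN, against 7.61% of all tested genes). A further 1 was lower without overlap (NFYA, against 9.57%). IFI30, a reductase of the antigen pathway, stood at 29.4, 18.4 and 20.3 CPM in post-ovulatory and 19.9, 7.97 and 7.30 CPM in early luteal replicates (log2 fold change -0.95 ± 0.48; edgeR, adjusted p = 0.700). Of 12 tested further dendritic genes 8 were above 0 (median 0.09, and 0.24 with 8 above 0 when early luteal replicate 2 was left out) and 0 passed. In 2 of the 12, CADM1 and CD1D, early luteal tissue was higher without overlap, against 7.61% of all tested genes. CADM1, an adhesion molecule of cross-presenting dendritic cells and of many epithelia, stood at 84.4, 74.2 and 96.2 against 167, 180 and 139 CPM without overlap (log2 fold change 0.93 ± 0.25; edgeR, adjusted p = 0.629). CD1D, which presents lipids to T cells, stood at 1.93, 2.77 and 4.56 CPM in post-ovulatory and 44.5, 6.89 and 4.71 CPM in early luteal replicates, where the nearest libraries of the stages were 4.56 and 4.71 CPM and only early luteal replicate 1 stood far above the rest (edgeR, adjusted p = 0.674).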

How the data were processed

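The authors deposited 1 table of raw counts per Ensembl gene for 6 libraries. Per the labels' protocols, stranded poly(A) libraries were read in pairs on a NextSeq2000. The build Sscrofa11.1 and the tools STAR, Trim Galore and FastQC 0.11.4 are named in the submitters' processing notes. The counter, its strand setting and the annotation release were not given in the sources used here. The header lacks a tab, so columns were read by position, matched to the order of its words; 1 word drops a letter of its label. Symbols were matched for 15623 genes. Library totals ranged from 7370723 to 30954222 counts.

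Counts were tested with edgeR 4.0.16 (R 4.3.3; TMM, filterByExpr, robust quasi-likelihood test, two-sided, Benjamini-Hochberg adjustment over 17920 genes). Each SE was derived from the fold change and its F statistic. Alternatives were DESeq2 1.42.0, limma 3.58.1 voom, other scalings and filters, a replicate block and leaving out each library. Leaving out early luteal replicate 2 for the pathway lists was chosen after seeing the data. The scripts were tested on simulated data. Members, lists and tests were chosen with earlier results of these data known. All members with a row are given; those in full follow a rule (separate stages, a defining gene, or 1 library apart), and up to 2 genes of lowest p stand for each related list. FLT3LG, CSF1, GAS6, HBB, HDC and the examples for early luteal replicate 2 were named after their values were seen. Gene positions are RefSeq's for Sscrofa11.1, matched by symbol.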

Additional observations from a re-analysis of the deposited data

How the results depend on the processing

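No member passed the threshold in any of the 14 alternatives run; the lowest adjusted p was 0.191 (CD163 without early luteal replicate 1). Over all genes, 8 were called with no filter on low counts and 175 by DESeq2. The labels do not say whether the replicate numbers pair the samples. Correlations of deviations were 0.0516, -0.0823 and 0.126 between libraries of like number and -0.163 to 0.0628 between those of unlike number. With 3 libraries per stage they cannot decide it. With the replicate block 0 genes and 0 members were called, and TREM2 and IRF8 turned to -0.28 and -0.15 and AIF1 to 0.041. The direction held in every alternative that gave a value in 14 of 34 members (CD163, MRC1, MSR1, CSF1R, MERTK, GPNMB, SPI1, FLT3, BATF3, XCR1, CD80, CD86, CD40 and SLA-DMA); FLT3 and SIGLEC1 had no value with the 1 CPM filter. The other 20 changed sign in at least 1, and the cause was not tested.

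AIF1 was 0.015 with DESeq2 size factors, 0.036 with upper quartile scaling, 0.0048 with library totals alone, 0.011 with the 1 CPM filter and 0.19 by limma voom. CD83 was 0.022, 0.0093 and 0.18 with upper quartile scaling, library totals alone and limma voom. Without a filter AXL, FCER1G and IRF8 were -0.0081, -0.019 and -0.0083, and by limma voom LYVE1 and TYROBP were 0.11 and 0.12.

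Leaving out 1 library at a time gave log2 fold changes from -1.12 to 0.16 for CD68, -2.97 to 0.39 for SIGLEC1, -1.63 to 0.29 for VSIG4, -0.74 to 0.53 for LYVE1, -0.48 to 0.27 for STAB1, -0.94 to 0.25 for CX3CR1, -0.22 to 0.57 for AXL, -1.29 to 0.62 for TREM2, -0.017 to 0.46 for LGALS3, -0.21 to 0.35 for AIF1, -1.01 to 0.32 for TYROBP, -0.29 to 0.65 for FCER1G and -1.15 to 0.15 for ITGAM. They ran from -0.80 to 0.49 for IRF8, -0.43 to 0.064 for IRF4, -0.57 to 0.46 for CD83, -2.22 to 0.064 for CD74, -1.99 to 0.19 for CIITA, -1.78 to 0.14 for SLA-DQB1 and -1.51 to 0.24 for SLA-DMB. Sparse counts limit FLT3, BATF3, XCR1, SIGLEC1 and TREM2.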

Other observations

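Markers of other leukocytes, not members of the list, also spread within the stages. JCHAIN, the joining chain made by plasma cells, stood at 538, 77.7 and 10.4 CPM in post-ovulatory and 252, 17.0 and 8.89 CPM in early luteal replicates 1, 2 and 3. The neutrophil genes MPO (0 counts in all libraries) and S100A8 (at most 2.23 CPM) were at or near 0, while LTF, which epithelia also make, ranged from 58.0 to 166 CPM. KIT, a receptor of mast cells and of other cells, stood at 30.3, 29.2 and 32.2 against 176, 55.7 and 67.9 CPM (log2 fold change 1.71 ± 0.44; edgeR, adjusted p = 0.596; DESeq2, adjusted p = 0.0461). The mast cell gene MS4A2 overlapped, at 9.92 to 24.1 against 5.70 to 17.9 CPM, and HDC, which makes histamine, had 66, 48 and 12 counts in post-ovulatory and 7, 0 and 2 counts in early luteal replicates (not tested in edgeR; DESeq2, adjusted p = 0.0569).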
